A study of Mus musculus with 7 samples.

Results

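The genes described here are the members of the S100 family of calcium-binding proteins, outside the calprotectin pair S100a8 and S100a9, that carried a substantial transcript level in cultured mouse haematopoietic stem cells: S100a1, S100a4, S100a6, S100a10, S100a11 and S100a13. They were taken by gene symbol and make 6 of the 52224 genes of the table. They were chosen by their FPKM levels and by their differences between the drug and DMSO libraries in this same table, so those values are given as a description and no test is reported for them. The study sequenced RNA of cells from the bone marrow of wild-type C57BL/6J mice, sorted as CD48-CD150+LSK and labelled as haematopoietic stem cells. The cells were kept in culture for 48 h with gemcitabine at 0.5 µM (Gem, 2 libraries), with hydroxyurea at 100 µM (HU, 2 libraries) or with the solvent DMSO (3 libraries). Gemcitabine is a cytidine analogue that stalls DNA synthesis, and hydroxyurea inhibits ribonucleotide reductase and so depletes the nucleotides for it. Whether the libraries within a group are from different mice or dishes is not stated in the labels, and every SD, SE and p-value therefore covers the spread between libraries only, which may be technical.

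S100 proteins are small proteins built of a pair of EF-hand calcium-binding loops and mostly work as dimers. Calcium opens a hydrophobic surface on them that binds other proteins, annexins and cytoskeletal proteins among them. In blood-forming tissue the family is best known through the calprotectin subunits of neutrophils and monocytes, while the genes described here are expressed across many cell types. Levels are FPKM, the fragments of a transcript divided by its length and by the mapped fragments of the library. They can be compared between genes only roughly, since a bias by length can remain.

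All 6 genes lie on mouse chromosome 3 (GRCm38, GENCODE M21). S100a1 (chr3:90511034-90514392, minus strand) and S100a13 (chr3:90514435-90524581, plus strand) stand head to head with 42 bases between the annotated genes. S100a4 (chr3:90603771-90606045) and S100a6 (chr3:90612882-90624181), both on the plus strand, are 6.84 kb apart. These 4 genes lie within 113 kb. After a gap of 2.90 Mb follow S100a11 (chr3:93520488-93526287) and S100a10 (chr3:93555080-93564643), both on the plus strand and together spanning 44.2 kb. Their exonic lengths were 694 bases for S100a1, 715 for S100a13, 584 for S100a4, 1367 for S100a6, 511 for S100a11 and 1212 for S100a10, all under the median of 3733 bases of the tested genes. S100a4 shares 302 exonic bases with the annotated gene Gm42674 on the same strand, which was listed at 0 in all 7 libraries, and the pseudogene S100a11-ps was also listed at 0. How reads of such overlaps were assigned is not given in the sources used here.

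RefSeq promoter windows (GRCm38.p6, 250 bases before to 50 bases after a start) were found for 5 of the 6 genes, all but S100a10. Windows were searched on both strands for 3 motifs. The TATA box was spelled TATAAA, the GC box, which Sp1 binds, was spelled GGGCGG, and the AP-1 site was spelled TGANTCA, which is its own reverse complement. Of all 32851 windows, 13.6% held the TATA box, 35.7% the GC box and 7.81% the AP-1 site. The windows of S100a1, S100a6 and S100a13 held none of these motifs, and those of S100a1 and S100a13 share 204 bases because the genes start 104 bases apart in RefSeq. Stretches of 250 bases before the start are shown for 3 genes: S100a4, whose level differed most between Gem and DMSO libraries and whose window held a TATA box 31 bases before the start; S100a11, the gene of the highest level, with AP-1 sites 136 and 38 bases and GC boxes 64, 52 and 24 bases before the start; and S100a6, which lies 6.84 kb from S100a4, with no match. Capitals mark the matches.
S100a4 chr3:90603520-90603769: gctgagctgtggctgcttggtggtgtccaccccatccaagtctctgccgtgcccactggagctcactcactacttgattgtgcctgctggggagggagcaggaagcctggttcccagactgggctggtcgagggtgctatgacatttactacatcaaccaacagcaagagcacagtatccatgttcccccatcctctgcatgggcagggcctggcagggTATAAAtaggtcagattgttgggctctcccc
S100a11 chr3:93520246-93520495: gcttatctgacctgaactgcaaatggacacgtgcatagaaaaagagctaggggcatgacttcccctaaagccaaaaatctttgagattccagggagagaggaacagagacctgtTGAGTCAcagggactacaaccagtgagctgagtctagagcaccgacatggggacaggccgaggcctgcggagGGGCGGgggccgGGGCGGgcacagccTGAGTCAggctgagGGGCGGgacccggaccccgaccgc
S100a6 chr3:90612644-90612893: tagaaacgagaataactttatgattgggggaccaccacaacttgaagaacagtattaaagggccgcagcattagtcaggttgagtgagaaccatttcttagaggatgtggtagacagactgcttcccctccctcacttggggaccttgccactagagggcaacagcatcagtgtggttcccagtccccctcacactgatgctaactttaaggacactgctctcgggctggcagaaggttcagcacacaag
All 3 stretches read along the plus strand. A match describes these letters only and is no evidence of binding in these cells.

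Before the members' levels, a few facts of the libraries bear on them. The deposited FPKM values summed to between 703016 and 729258 in Gem libraries, 647760 and 651315 in HU libraries, and 818775 and 832979 in DMSO libraries. Of 1766 olfactory and vomeronasal receptor genes, which blood cells are not known to use, 955 to 1031 were above 0 in Gem libraries, 1182 to 1204 in HU libraries and 373 to 400 in DMSO libraries. Most genes had lower values in the drug libraries: the median log2 fold change of the 13865 tested genes was -0.25 in Gem against DMSO and -0.30 in HU against DMSO. Values are therefore given both as deposited and after trimmed-mean scaling (called scaled), which set those medians to 0.011 and 0.019. The sort label was only partly matched by the transcripts. Of 13 stem cell genes listed 11 were tested. Of genes that the label names, Kit had 28.98 to 48.22 and Ly6a (Sca-1) 14.74 to 48.31 FPKM over the 7 libraries. However, Slamf1 (CD150) stayed at or below 1.25 FPKM. Cd48, which the sort selected against, had 124.56 and 130.18 FPKM in Gem, 101.52 and 112.79 in HU and 201.73 to 223.44 in DMSO libraries. The other listed stem cell genes are not named by the label and are not counted for or against a match. Cd34 had 98.27 to 128.47, Meis1 25.49 to 37.52, Procr 9.06 to 17.04 and Hoxa9 6.27 to 9.83 FPKM. Flt3 had 4.62 to 7.36, Hlf 0.60 to 3.68 and Mllt3 1.22 to 2.14 FPKM, and Mecom and Fgd5 stayed at or below 1.71 and 0.50 FPKM. The myeloid lysozyme gene Lyz2 had at least 21718 FPKM. In such bulk libraries, fewer cells of a type and less RNA per cell cannot be told apart.

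All 6 genes had lower levels in the drug libraries than in the DMSO libraries, and the difference was largest for S100a4 in Gem libraries and for S100a6 in HU libraries. As deposited, S100a4 averaged 40.4% of its DMSO mean in Gem libraries and 43.4% in HU libraries, and S100a6 52.7% in Gem and 40.1% in HU libraries. S100a11 kept the largest part of its level, 74.2% in Gem and 59.3% in HU libraries. The 6 genes together summed to 649.36 and 594.19 FPKM in Gem libraries, 547.27 and 525.47 in HU libraries, and 1134.39, 1123.47 and 938.92 in DMSO libraries. As a share of all FPKM of a library, which does not depend on the scaling of that library, this was 0.0890% and 0.0845% in Gem, 0.0845% and 0.0807% in HU, and 0.136%, 0.137% and 0.115% in DMSO.

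S100a4, also called metastasin, encodes a protein that binds the heavy chain of non-muscle myosin IIA and is known for its part in cell motility. Its level was 114.79 and 98.76 FPKM in Gem libraries, 117.57 and 111.73 in HU libraries, and 281.48, 281.14 and 230.54 in DMSO libraries. Both drug groups lay far below every DMSO library and overlapped each other. The log2 fold change was -1.30 ± 0.11 (SE) in Gem against DMSO and -1.19 ± 0.11 in HU against DMSO; scaled, it was -0.995 ± 0.10 and -0.83 ± 0.10. Of all tested genes, 0.692% had a lower scaled change in Gem and 1.74% in HU. In Gem this share was 2.11% for S100a6, 4.77% for S100a1, 5.23% for S100a10, 26.1% for S100a13 and 28.0% for S100a11. In HU it was smallest for S100a6, at 1.24%, and largest for S100a11. The genes were chosen on these differences, so the shares are a description and nothing is read from them. Among the 6 genes S100a4 held 17.7% and 16.6% of the summed FPKM in Gem, 21.5% and 21.3% in HU, and 24.55% to 25.02% in DMSO libraries.

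S100a6 encodes calcyclin, a protein first found as rising with cell growth, which binds the ubiquitin ligase adaptor CacyBP. It had 83.30 and 64.81 FPKM in Gem libraries, 64.37 and 48.41 in HU libraries, and 155.49, 145.03 and 121.29 in DMSO libraries. Again no drug library reached the lowest DMSO library, and the lower Gem library and the higher HU library were nearly equal. The log2 fold changes were -0.92 ± 0.17 in Gem and -1.31 ± 0.17 in HU against DMSO, and scaled -0.62 ± 0.16 and -0.94 ± 0.16. S100a4 and S100a6 lie near each other on the chromosome, with S100a5 between them, and their ratio within a library does not depend on scaling. The log2 ratio of S100a4 over S100a6 was 0.46 and 0.61 in Gem libraries, 0.87 and 1.21 in HU libraries, and 0.86, 0.95 and 0.93 in DMSO libraries. The Gem libraries lay below all others in this ratio, and of the HU libraries one lay within the DMSO range and one above it.

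S100a1 is best known from heart muscle, where its protein acts on the ryanodine receptor and the calcium pump SERCA2. In these cells it was 127.83 and 128.35 FPKM in Gem libraries, 110.46 and 124.15 in HU libraries, and 216.79, 229.81 and 199.63 in DMSO libraries. The drug libraries formed a narrow band well below the DMSO libraries. Its log2 fold changes were -0.74 ± 0.09 in Gem and -0.87 ± 0.09 in HU against DMSO, and scaled -0.44 ± 0.08 and -0.50 ± 0.08. S100a13, which starts on the opposite strand beside it, encodes a protein that takes part in the export of FGF1 and interleukin-1 alpha. It had the lowest level of the 6, with 39.66 and 42.53 FPKM in Gem libraries, 26.13 and 34.75 in HU libraries, and 57.36, 67.78 and 45.04 in DMSO libraries. As deposited, the groups did not overlap, but the Gem libraries came within a few FPKM of the third DMSO library. Scaled, S100a13 was 42.0 and 46.9 FPKM in Gem libraries, 29.9 and 38.8 in HU libraries, and 49.6, 58.8 and 40.3 in DMSO libraries, so that both Gem libraries lay above the third DMSO library. The log2 fold changes of S100a13 were -0.44 ± 0.18 in Gem and -0.87 ± 0.18 in HU, and scaled -0.14 ± 0.17 and -0.51 ± 0.17. The log2 ratio of S100a1 over S100a13 was 1.69 and 1.59 in Gem, 2.08 and 1.84 in HU, and 1.92, 1.76 and 2.15 in DMSO libraries. The Gem ratios lay below all others and the HU ratios within the DMSO range.

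S100a10 encodes p11, which is unusual in the family because it does not bind calcium; with annexin A2 it forms a complex at the cell membrane that binds plasminogen. It had 65.31 and 63.76 FPKM in Gem libraries, 47.22 and 56.85 in HU libraries, and 128.95, 117.67 and 81.23 in DMSO libraries. The third DMSO library lay nearer to the Gem libraries than to the other DMSO libraries, at 65.9% of the mean of the other two, and after scaling its 72.6 FPKM stood just above 69.1 and 70.4 in Gem libraries. The log2 fold changes were -0.72 ± 0.19 in Gem and -1.04 ± 0.19 in HU, and scaled -0.42 ± 0.17 and -0.67 ± 0.17. S100a11 encodes a partner of annexin A1 that is also a substrate of transglutaminase in skin. Its level was the highest of the 6 in every library, with 218.47 and 195.98 FPKM in Gem, 181.52 and 149.58 in HU, and 294.32, 282.04 and 261.19 in DMSO libraries. The groups stood in 3 separate ranges, HU lowest. The log2 fold changes of S100a11 were -0.43 ± 0.10 in Gem and -0.76 ± 0.10 in HU, and scaled -0.13 ± 0.10 and -0.39 ± 0.10. Scaled, the Gem libraries at 231 and 216 FPKM came close to the lowest DMSO library at 233. The change of S100a11 in Gem was 0.034 after quantile normalization, so its direction there depends on the scaling.

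**Figure D1:**
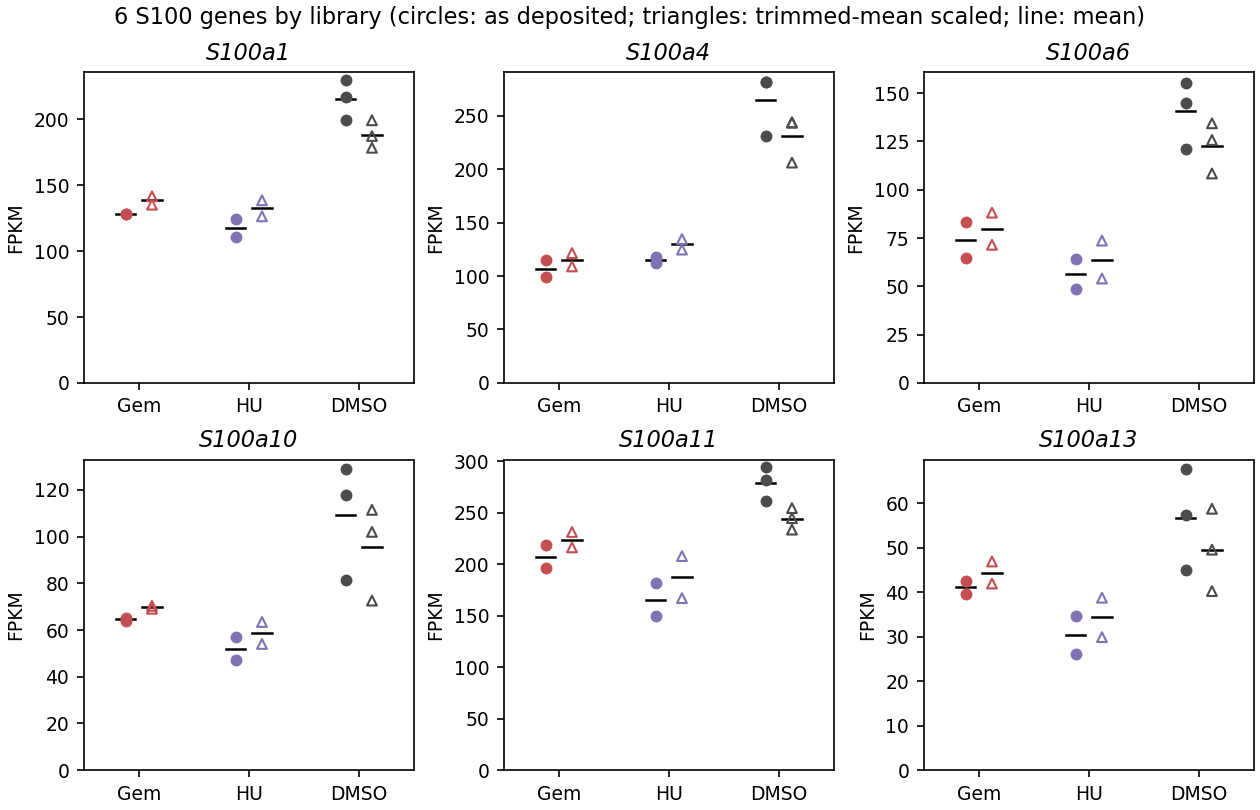
FPKM (vertical axes, from 0) of the 6 S100 genes in each library of cells given gemcitabine (Gem, n = 2), hydroxyurea (HU, n = 2) or DMSO (n = 3); circles are values as deposited, triangles scaled values and lines the group means. As deposited, every Gem and HU library lies below every DMSO library for all 6 genes; scaled, S100a13 in Gem is the exception, with 42.0 and 46.9 FPKM above the 40.3 of the third DMSO library.

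Set together, all 4 drug libraries lay below all 3 DMSO libraries for all 6 genes as deposited, which 42.6% of the tested genes did, and for 5 of the 6 scaled, which 11.1% did. The genes were chosen with these differences known, and nothing is read from the counts. The median log2 fold change over the 6 genes was -0.73 in Gem and -0.95 in HU, beside -0.25 and -0.30 over all tested genes. Scaled, it was -0.43 and -0.59, beside 0.011 and 0.019. Gem and HU were set against the same DMSO libraries, and the third of these was the lowest DMSO library for all 6 genes, at 65.9% (S100a10) to 90.6% (S100a11) of the mean of the other two. Without it the members' median was -0.86 in Gem and -1.13 in HU.

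**Figure D2:**
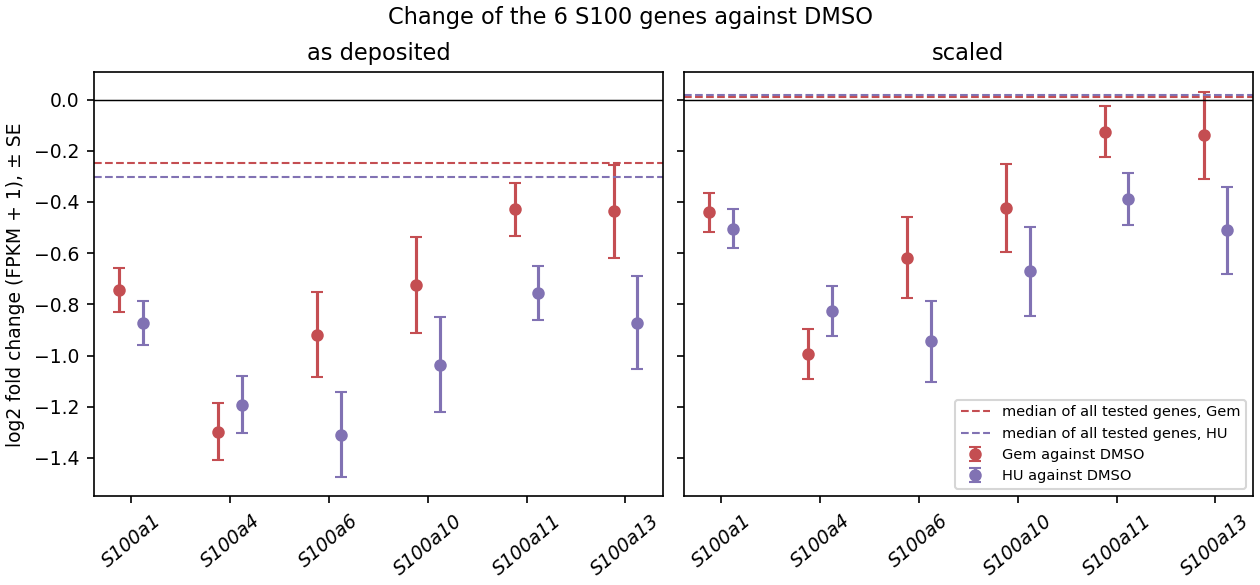
Log2 fold change of FPKM + 1 against DMSO for each of the 6 S100 genes, as deposited (left) and scaled (right); points are limma estimates with their SE, red for Gem and violet for HU, and dashed lines are the medians of all 13865 tested genes. S100a4 in Gem stands lowest on the right at -0.995, while S100a11 and S100a13 in Gem stand at -0.13 and -0.14.

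Short genes can be measured with a different bias than long ones. After a correction for exonic length and level, fitted on the tested genes, the members' median was -0.33 in Gem and -0.35 in HU. S100a4 stood at -0.97 in Gem and -0.61 in HU under it and S100a6 at -0.46 and -0.70, while S100a13 in Gem stood at 0.0035.

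Between the drugs, the members' median difference was smaller than that of either drug from DMSO. The genes were chosen on their differences from DMSO, so nothing is read from this order. As deposited, 5 of the 6 genes, all but S100a4, were higher in both Gem libraries than in both HU libraries, which 27.7% of the tested genes were. The log2 difference of Gem against HU was 0.43 ± 0.20 (SE) for S100a13, 0.39 ± 0.18 for S100a6, 0.33 ± 0.11 for S100a11, 0.31 ± 0.21 for S100a10 and 0.13 ± 0.09 for S100a1, and -0.11 ± 0.12 for S100a4. The members' median was 0.32, beside 0.056 over all tested genes. Scaled, only S100a10, S100a11 and S100a13 were higher in both Gem libraries (20.0% of the tested genes), S100a4 was lower in both (19.6%), and the members' median was 0.26.

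The order of the members' mean levels differed between the groups in the middle ranks. In HU library 1, S100a4 at 117.57 FPKM still stood above S100a1 at 110.46, as in the DMSO libraries. In DMSO libraries the means were 279 FPKM for S100a11, 264 for S100a4, 215 for S100a1, 141 for S100a6, 109 for S100a10 and 56.7 for S100a13. There S100a11 and S100a4 overlapped between libraries, as did S100a6 and S100a10. In Gem libraries S100a11 (207 FPKM) was followed by S100a1 (128), S100a4 (107), S100a6 (74.1), S100a10 (64.5) and S100a13 (41.1), with overlap of S100a6 and S100a10 only. In HU libraries the order was S100a11 (166), S100a1 (117), S100a4 (115), S100a6 (56.4), S100a10 (52.0) and S100a13 (30.4), with overlap of S100a1 with S100a4 and of S100a6 with S100a10. S100a11 thus held 33.6% and 33.0% of the 6 genes' summed FPKM in Gem, 33.2% and 28.5% in HU, and 25.1% to 27.8% in DMSO libraries.

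The remaining S100 genes were silent or low apart from the calprotectin pair. Of 12 other family members in the table, 9 stayed below 1 FPKM in every library, among them S100a2, S100a3, S100a5, S100a14 and S100a16, which lie between or beside the described genes on the chromosome. S100z was listed at 0 throughout. S100a7a, a relative of the skin protein psoriasin, had 0.78 and 0.53 FPKM in Gem, 1.10 and 1.67 in HU, and 0.05, 0 and 0.22 in DMSO libraries. It passed the low-value filter only through the HU libraries, where it was highest, so its log2 fold changes of 1.12 in HU and 0.60 in Gem are given as values, and nothing is read from its call in HU. Olfactory and vomeronasal receptor genes also reached 1.54 and 2.30 FPKM at their highest in Gem libraries, 2.37 and 7.43 in HU libraries, and 0.59 to 2.15 in DMSO libraries; the part of this in the level of S100a7a was not tested.

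S100a8 and S100a9, the subunits of calprotectin, were by far the most abundant S100 transcripts. S100a9 had 2005.07 and 1760.68 FPKM in Gem, 1141.46 and 1198.01 in HU, and 2793.18, 2694.95 and 1729.71 in DMSO libraries. It fell in HU as deposited (log2 fold change -1.01, limma, Benjamini-Hochberg adjusted p = 0.00784) but did not pass scaled (-0.64), and its change in Gem was -0.32 (adjusted p = 0.273). The change of S100a8 was -0.042 in Gem (adjusted p = 0.913), where it was 0.26 scaled, and -0.65 in HU (adjusted p = 0.0599). Leaving out the third DMSO library, which was low for both genes, brought S100a9 in Gem to -0.55 (limma adjusted p = 0.00969) and S100a8 in HU to -0.89 (limma adjusted p = 0.00323), both past the threshold. Over all alternatives the adjusted p ranged between 0.00969 and 0.976 for S100a9 in Gem and between 0.00323 and 0.965 for S100a8 in HU. The log2 ratio of S100a9 over S100a8 was -1.19 and -1.03 in Gem, -1.18 and -1.20 in HU, and -0.83, -0.87 and -0.79 in DMSO libraries, lower in all 4 drug libraries than in any DMSO library.

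Genes beside the described S100 genes were looked at for their position, after the values had been seen. Of 31 annotated neighbours within 100 kb that the table lists, 21 stayed below 1 FPKM in every library and 7 were tested. Chtop, an mRNA export factor gene 1536 bases from S100a1, had 51.72 and 52.28 FPKM in Gem, 46.66 and 47.47 in HU, and 64.93, 67.35 and 69.89 in DMSO libraries. It fell in Gem (log2 fold change -0.37, limma, Benjamini-Hochberg adjusted p = 0.0120) and in HU (-0.51, adjusted p = 0.00199) as deposited, but scaled its changes of -0.068 and -0.15 did not pass. Ilf2 fell by 0.43 in Gem (limma adjusted p = 0.0199) and by 0.54 in HU (limma adjusted p = 0.00527) as deposited. Snapin changed by -0.33 in Gem (limma adjusted p = 0.0556), which did not pass, and fell by 0.38 in HU (limma adjusted p = 0.0238). Scaled, neither passed in either drug. Ints3, an Integrator complex subunit gene further out, changed by -0.12 in Gem (limma adjusted p = 0.484) and -0.17 in HU (limma adjusted p = 0.289). Neither change of Ints3 passed, and scaled they were 0.16 and 0.17. Of all tested genes, 23.2% fell in Gem and 35.5% in HU as deposited. The other tested neighbours, S100a7a, S100a8 and S100a9, are given above.

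**Figure D3:**
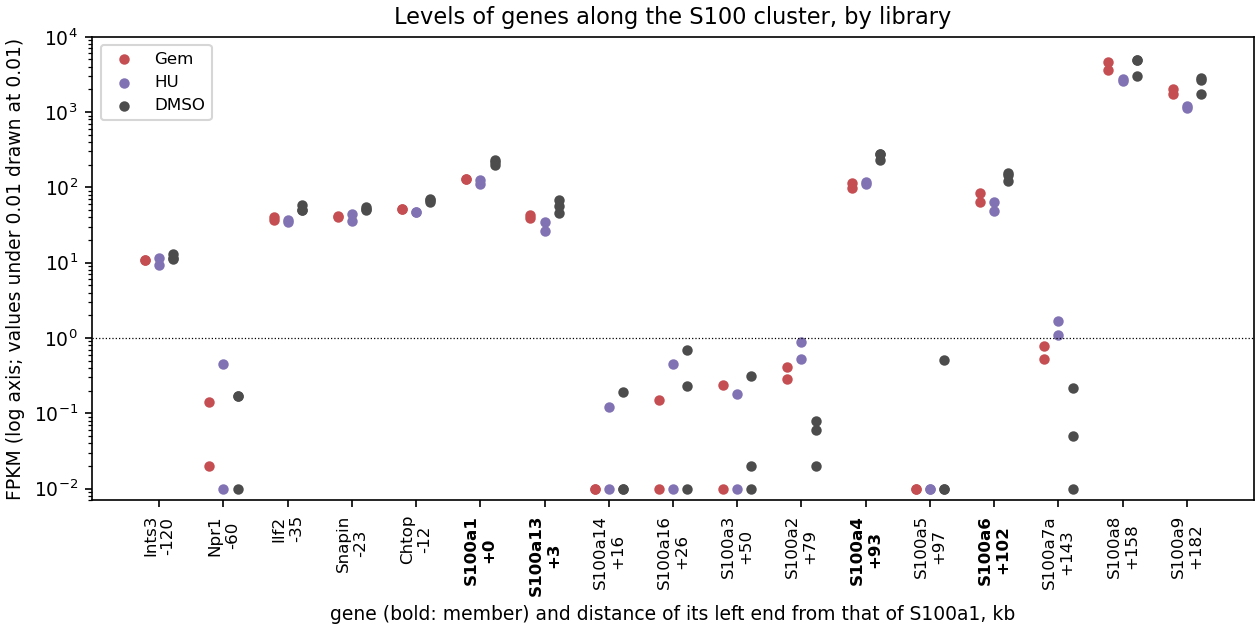
FPKM by library (log axis, values under 0.01 drawn at 0.01) of genes along the chromosome around S100a1, S100a13, S100a4 and S100a6 (bold), ordered by the distance of their left end from that of S100a1 in kb; red is Gem, violet HU and black DMSO. The 4 described genes stand far above the S100 genes between them, and S100a8 and S100a9 stand highest.

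The annexins are calcium-dependent membrane-binding proteins and include the main partners of S100A10 and S100A11. Of 12 annexin genes listed, 9 passed the low-value filter, and by limma with Benjamini-Hochberg adjustment 5 of these fell in Gem and 7 in HU as deposited, where 23.2% of all tested genes fell in Gem and 35.5% in HU. Scaled, 0 of the 9 passed in either drug, and at an unadjusted p under 0.05 there were 2 in Gem and 3 in HU, all lower. The annexins' median log2 fold change was -0.38 in Gem and -0.52 in HU as deposited, and -0.11 and -0.15 scaled. Anxa2, whose protein pairs with p11, had 82.19 and 74.11 FPKM in Gem, 69.21 and 82.93 in HU, and 137.92, 138.94 and 104.13 in DMSO libraries. It fell by 0.68 in Gem on the log2 scale (limma adjusted p = 0.0168) and by 0.73 in HU (limma adjusted p = 0.00755). Anxa1, the partner of S100A11 and a regulator of inflammation, fell by 0.50 in Gem (limma adjusted p = 0.0128) and by 0.64 in HU (limma adjusted p = 0.00274). Anxa3 fell by 0.56 and 0.59, Anxa5, whose protein binds exposed phosphatidylserine, by 0.41 and 0.52, and Anxa6 by 0.34 and 0.38 in Gem and HU, with limma adjusted p values from 0.00190 to 0.0177. None of these calls held scaled, and Anxa5 and Anxa6 turned slightly positive in both drugs after quantile normalization.

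Other proteins that S100 proteins bind or act on were taken as a list of 16 genes, of which 9 passed the filter. Of these, 4 fell in Gem and 6 in HU as deposited by limma (23.2% and 35.5% of all tested genes), and scaled 0 passed in Gem, with 1 lower at an unadjusted p under 0.05, and 1 in HU (0.469% and 5.27% of all tested genes fell). That call was Cacybp, the binding partner of S100A6, which had 75.01 and 65.38 FPKM in Gem, 55.39 and 57.46 in HU, and 94.47, 89.12 and 87.89 in DMSO libraries. Cacybp fell by 0.36 in Gem (limma adjusted p = 0.0198) and by 0.67 in HU (limma adjusted p = 0.00156) as deposited; in HU it also passed scaled, with an adjusted p of 0.0353 and a range over all alternatives of 0.000777 to 0.323. Sugt1, a co-chaperone gene, fell by 0.37 in Gem and 0.57 in HU (limma adjusted p = 0.0147 and 0.00192), the phosphatase gene Ppp5c by 0.56 and 0.49 (0.00699 and 0.00342), and the immunophilin gene Fkbp4 by 0.44 and 0.39 (0.00811 and 0.00462). Myh9, the myosin heavy chain that S100A4 binds, changed by -0.34 in Gem (limma adjusted p = 0.0784), which did not pass, and fell by 0.36 in HU (limma adjusted p = 0.0494), a call lost without DMSO library 1 or 2, HU library 2 or either Gem library. Without DMSO library 3 its change of -0.42 in Gem passed (limma adjusted p = 0.0483; 0.0462 to 0.958 over all alternatives). Ahnak, whose giant protein joins the complex of p11 and annexin A2, changed by -0.38 in Gem (limma adjusted p = 0.333) and -0.42 in HU (limma adjusted p = 0.260). Without HU library 1 the change of Ahnak in HU was -0.014, without HU library 2 it was -0.82, and without DMSO library 2 it was -0.22 in Gem and -0.25 in HU. Il1a, which encodes an export cargo of S100A13, had 2.81 and 2.90 FPKM in Gem, 2.0 and 2.95 in HU, and 4.67, 3.53 and 21.38 in DMSO libraries; its changes of -1.11 and -1.27 did not pass (limma adjusted p = 0.218 and 0.137), and without DMSO library 3 they were -0.39 and -0.56. After quantile normalization the changes of Cacybp and Fkbp4 in Gem and of Myh9 and Fkbp4 in HU lay above 0. The receptor gene Ager (RAGE) and the cargo gene Fgf1 stayed below 1 FPKM throughout.

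Over the 3 lists of annexins, other partners and other S100 genes, 21 of 40 genes were tested. As deposited 9 fell and 0 rose in Gem, with 1 higher at an unadjusted p under 0.05, and 14 fell in HU, where 23.2% and 35.5% of all tested genes fell; S100a7a was counted as higher in HU. Without Gem library 2 the count in Gem was 0, and over all tested genes it was 13 in place of 3421. Without Gem library 1 or DMSO library 1 the count was 4 and Anxa2, Anxa5, Anxa6 and Sugt1 did not pass in Gem; Anxa1 was also lost without Gem library 1 and Cacybp without DMSO library 1. Over all tested genes there were 1555 calls without Gem library 1, 1525 without DMSO library 1 and 2167 without DMSO library 2. In HU, Anxa2 and Anxa6 did not pass without HU library 1, where 3095 calls were left over all tested genes in place of 5541, and without HU library 2 there were 3677. Scaled, it was 0 in Gem, with 1 higher and 3 lower at an unadjusted p under 0.05, and 2 in HU, Cacybp and S100a7a. Over all tested genes the limma calls in Gem were 208 higher (1.50%) and 3213 lower as deposited and 67 higher (0.483%) and 65 lower scaled, and in HU 619 higher (4.46%) and 4922 lower as deposited and 659 higher (4.75%) and 730 lower scaled. The median log2 fold change of the 21 genes was -0.36 in Gem and -0.49 in HU as deposited, and -0.073 and -0.13 scaled, beside -0.43 and -0.59 for the 6 described S100 genes scaled. The 6 genes were chosen on these differences. The 21 were listed by family or binding, also with earlier results of these data known. Nothing is read from the contrast.

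**Figure D4:**
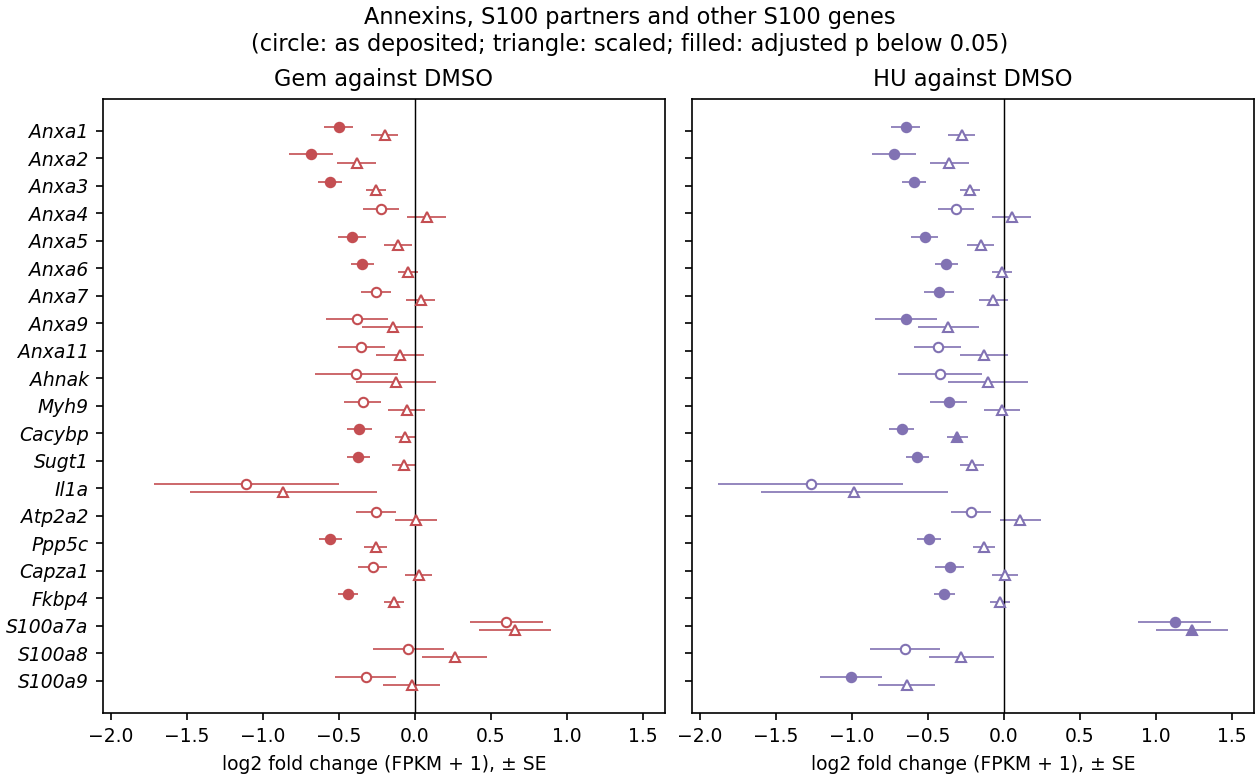
Log2 fold change of FPKM + 1 against DMSO with its SE for the 21 tested annexins, S100 partners and other S100 genes, Gem on the left and HU on the right; circles are values as deposited, triangles scaled, and filled symbols passed limma at an adjusted p under 0.05. As deposited 9 genes are filled in Gem and 15 in HU; scaled, none is filled in Gem, and Cacybp (lower) and S100a7a (higher, tested only through its HU values) are filled in HU.

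Ratios of a member to its partner within a library are independent of library scaling. The log2 ratio of S100a4 over Myh9 was 2.66 and 2.51 in Gem, 2.60 and 2.82 in HU, and 3.62, 3.48 and 3.50 in DMSO libraries, and that of S100a6 over Cacybp was 0.15 and -0.013 in Gem, 0.22 and -0.25 in HU, and 0.72, 0.70 and 0.46 in DMSO libraries. Both ratios were lower in every drug library than in every DMSO library. The share of all gene pairs with such a separation was not counted. The log2 ratio of S100a10 over Anxa2 was -0.33 and -0.22 in Gem, -0.55 and -0.54 in HU, and -0.10, -0.24 and -0.36 in DMSO libraries, so that Gem libraries overlapped DMSO libraries and HU libraries lay below. The ratio of S100a11 over Anxa1 was 0.70 and 0.44 in Gem, 0.63 and 0.14 in HU, and 0.50, 0.46 and 0.53 in DMSO libraries, with overlap of all groups. For S100a13 over Il1a the log2 ratio was 3.82 and 3.87 in Gem and 3.71 and 3.56 in HU libraries. In DMSO libraries it was 3.62, 4.26 and 1.07, a range that held both drug groups. Since the upper gene of each ratio was chosen for its level here, the ratios are a description.

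**Figure D5:**
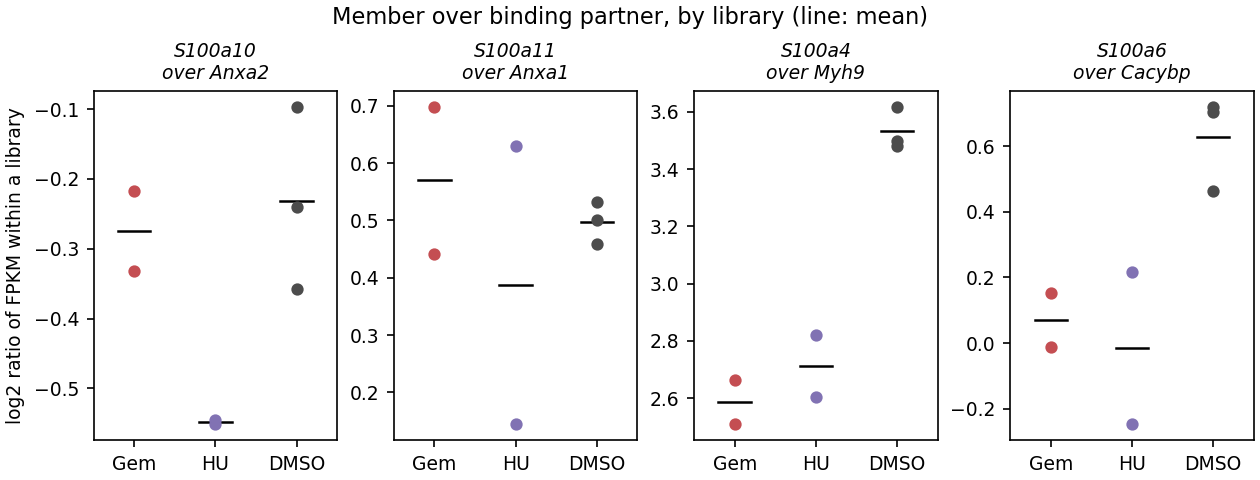
Log2 ratio of FPKM within each library for a member over its binding partner, by group (points are libraries, lines are means; the vertical axes differ and do not start at 0). The ratios over Myh9 and Cacybp are separate from DMSO in both drugs, at 2.51 to 2.82 in Gem and HU against 3.48 to 3.62 in DMSO for S100a4 over Myh9, and the ratio of S100a11 over Anxa1 overlaps.

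Markers of other blood cell types moved with the groups in part. The summed FPKM of 15 monocyte and macrophage genes was 38692 to 39382 in Gem, 36031 to 40273 in HU and 27127 to 36427 in DMSO libraries, most of it Lyz2. That of 15 neutrophil genes was 12444 to 15449 in Gem, 11639 to 12154 in HU and 11668 to 18618 in DMSO libraries. This list holds S100a8 and S100a9, which together made 5363 to 6579 in Gem, 3729 to 3941 in HU and 4719 to 7747 in DMSO libraries. S100a9 is also among its genes called in HU as deposited. The 13 mast cell and basophil genes summed to 285 to 476 in Gem, 266 to 268 in HU and 365 to 1458 in DMSO libraries. The 12 megakaryocyte and platelet genes summed to 1775 to 1873 in Gem, 1421 to 1616 in HU and 1822 to 2936 in DMSO libraries, and the 13 stem cell genes to 348 to 363 in Gem, 303 to 322 in HU and 471 to 500 in DMSO libraries. The stem cell list holds Cd48, which the sort selected against and which had 201.73 to 223.44 FPKM in DMSO libraries. The 11 erythroid genes in the table summed to 41.4 to 49.3 in Gem, 49.9 to 51.7 in HU and 75.5 to 122 in DMSO libraries. The 13 lymphoid genes summed to 56.5 to 72.2 in Gem, 63.9 to 64.5 in HU and 80.9 to 117 in DMSO libraries, and the 12 stromal and endothelial genes to 89.3 to 118 in Gem, 91.1 to 115 in HU and 92.7 to 160 in DMSO libraries. By limma as deposited, 6 of 15 tested monocyte genes fell in Gem and 9 in HU, 1 of 14 neutrophil genes in Gem and 3 in HU, 1 of 8 mast cell genes in Gem and 4 in HU, and 2 of 12 megakaryocyte genes in Gem and 5 in HU. Of 11 tested genes of the stem cell list 5 fell in Gem and 5 in HU, Cd48 among them in both. Of 8 erythroid genes 4 fell in Gem and 2 in HU, and of 5 stromal and 4 lymphoid genes 1 each in either drug. All these counts stand beside 23.2% of all tested genes in Gem and 35.5% in HU. Scaled, 1 erythroid gene was called lower in Gem, beside 0.469% of all tested genes. Scaled in HU, 2 genes of the stem cell list were called lower, Cd48 and Ly6a. So was 1 gene each of the mast cell, megakaryocyte and erythroid lists, and 1 monocyte gene was called higher. Of all tested genes 5.27% were called lower and 4.75% higher. No gene of these lists was at 0 in every library. The part of cell composition in the S100 levels was not tested.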

How the data were processed

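RNA of 7 libraries (2 Gem, 2 HU and 3 DMSO) was sequenced after amplification of complementary DNA by the Geo-seq method and a transposase library kit, per the labels' protocols. The authors deposited FPKM values per gene. Per the submitters' processing notes, the build was mm10 and the tools included Cufflinks 2.1.1, Bowtie 0.12.9, DESeq2 and HTSeq; no source used here says which step each served or whether read strand was used.

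For the fits, limma 3.58.1 (R 4.3.3) was run on log2(FPKM + 1), in 1 model of the 3 groups with a mean-variance trend and 4 residual degrees of freedom. The 13865 genes that reached 1 FPKM in 2 or more libraries entered, and the 6 S100 genes passed in every group. Fold changes on this scale understate the change of low genes. Tests were two-sided, with Benjamini-Hochberg adjustment over all tested genes and calls under 0.05. Scaled values follow a trimmed mean (30% of ratios and 5% of levels removed at each end). Coordinates and lengths came from GENCODE M21, and 96.8% of the tested genes had a length. The script was tested on simulated data. Figures were drawn in Python 3.11.15.

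The members, lists and rules were chosen with earlier results of these data known. Partners were named as Anxa1, Anxa2, Myh9, Cacybp, Ahnak, Il1a, S100a8 and S100a9, plus up to 3 called genes per list and contrast with the smallest adjusted p. The 2 genes nearest in profile were taken for each member.

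Depth is unknown: with the best-fitting read step, 25.4% to 30.8% of low values per library came within 0.1 of whole multiples, where a fixed step gives 20% by chance. No interval that needs a depth is given. Alternatives, 19 in all, were other scalings, a smaller pseudocount (0.1), no filter or a stricter one (mean FPKM of 5), leaving out each library, a replicate block, the compared groups alone, no trend, and 3 added after the data were seen.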

Additional observations from a re-analysis of the deposited data

How the results depend on the processing

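The members' median log2 fold change kept its sign under all 19 alternatives. In Gem (-0.73) it was -0.43 with trimmed-mean scaling, -0.53 on the TPM scale and -0.30 after quantile normalization, and in HU (-0.95) -0.59, -0.62 and -0.47. Leaving out each library in turn gave -0.86 to -0.66 in Gem, -1.13 to -0.88 in HU and 0.20 to 0.36 in Gem against HU. Of 228 changes of single members against DMSO under these alternatives, 226 were below 0 and 2 above, for S100a11 and S100a13 in Gem. The genes were chosen on these differences and the alternatives reuse the same libraries. The kept signs are therefore a description, and the share of all tested genes below 0 was not counted. Alternatives added after seeing the data gave, in Gem and HU, -0.54 and -0.75 with scaling when DMSO library 3 was left out, and -0.33 and -0.35 with a length and level correction (0.10 in Gem against HU).

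Of the 21 tested genes of the 3 lists, called partner genes here, 9 passed in Gem and 15 in HU. As deposited 23.2% and 35.5% of all tested genes fell, and scaled 0.469% and 5.27%. The 15 in HU, and the 2 with scaling, include S100a7a, from whose call nothing is read. The partner counts in Gem and HU were 0 and 2 with scaling, 2 and 2 on the TPM scale and 0 and 0 after quantile normalization. They were 1 and 5 with scaling when DMSO library 3 was left out, and 0 and 0 with the length and level correction. Leaving out each library gave 0 to 11 in Gem and 10 to 15 in HU.

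The labels do not say whether replicate numbers pair the libraries, and no pairing was assumed. Over the tested genes, deviations of libraries with the same number correlated at 0.025 (Gem and DMSO), 0.044 (HU and DMSO) and -0.074 (Gem and HU). Each value rests on few libraries and cannot exclude a shared origin. With the replicate block the members' median was -0.86 in Gem and -1.13 in HU, since DMSO library 3 has a number of its own; with block and scaling it was -0.54 and -0.75, and the partner counts were 0 and 2.

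The change of S100a8 in Gem (-0.042, not past the threshold) was above 0 in 8 of 19 alternatives, at most 0.26 with scaling. Among partner changes past it, signs turned as follows. After quantile normalization Cacybp (0.038), Anxa6 (0.030), Fkbp4 (0.00011) and Anxa5 (0.0093) were above 0 in Gem, and Myh9 (0.020), Anxa6 (0.13), Fkbp4 (0.18) and Anxa5 (0.17) in HU. The member S100a11, for which no test is given, was also above 0 in Gem there (0.034). With the length and level correction Cacybp (0.061) and Anxa6 (0.048) were above 0 in Gem and Anxa6 (0.12), Fkbp4 (0.15) and Anxa5 (0.099) in HU. The cause was not tested. Precision is limited by 2 libraries in each drug group and an unknown depth.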

Other observations

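The genes nearest in profile to each S100 gene, among 8063 genes with a mean of at least 5 FPKM, were ranked by the root mean square difference of scaled log2 values over the 7 libraries, each gene centred on its own mean. For S100a11 they were Btf3, a gene of the nascent polypeptide-associated complex (0.040), and Myl12a, a myosin regulatory light chain gene (0.041). Btf3 had 307.33 and 292.71 FPKM in Gem, 259.22 and 213.29 in HU, and 421.15, 386.88 and 389.17 in DMSO libraries. For S100a1 they were Dynlt1f (0.045), one of several near-identical dynein light chain genes whose reads may be shared, and the respiratory complex I gene Ndufb7 (0.047). For S100a10 they were the glutathione transferase gene Mgst3 (0.061) and the mitochondrial gene Chchd10 (0.092), and for S100a13 the dynactin gene Dctn6 (0.074) and the mitochondrial thioesterase gene Acot2 (0.092).

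The nearest to S100a4 were Lrrc8a, a volume-regulated anion channel gene (0.094), and Fkbp2, a peptidyl-prolyl isomerase gene (0.11). Lrrc8a had 4.69 and 4.13 FPKM in Gem, 5.23 and 5.25 in HU, and 14.62, 15.80 and 10.99 in DMSO libraries. The nearest to S100a6 were the complex I gene Ndufa3 (0.10) and the histone chaperone gene Set (0.11). Set had 114.32 and 97.02 FPKM in Gem, 88.08 and 81.68 in HU, and 225.94, 230.11 and 197.51 in DMSO libraries. Between the 6 S100 genes the same measure ran from 0.17 (S100a1 and S100a10) to 0.39 (S100a4 and S100a13).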
